A study of Mus musculus with 3 samples.

Results

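The 10 genes described here encode transcription factors that direct the dendritic cell lineage: Irf8, Batf3, Id2, Nfil3, Zbtb46, Irf4, Klf4, Tcf4, Spib and Zeb2. They were chosen by symbol, as factors known to act in this lineage, from the 32285 genes of the deposited matrices, and every one of the 10 was matched. Dendritic cell cultures of wild-type C57BL/6 mice, grown in vitro with the growth factor FLT3L, gave 3 libraries of droplet single-cell RNA sequencing. One culture condition held 50 µM glutamine, one held 2 mM glutamine with 1 µM DON, an antagonist of glutamine-using enzymes, and the control held 2 mM glutamine alone. There was 1 library in each group, so no test between the culture conditions was possible, and intervals between conditions cover counting error only. The study's title raises the dependence of type 1 conventional dendritic cells on glutamine.

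Dendritic cells arise from bone marrow progenitors that branch into plasmacytoid dendritic cells (pDC), which secrete type I interferon, and conventional dendritic cells (cDC), which present antigen to T cells. The branches are set by transcription factors that oppose each other. The E protein TCF4, made from Tcf4, is required for pDC, and ID2, made from Id2, binds E proteins and blocks their binding to DNA. IRF8 with BATF3 directs type 1 cDC (cDC1), which cross-present antigen to CD8 T cells, whereas IRF4 and KLF4 act in type 2 cDC (cDC2), which mainly prime CD4 T cells.

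Cells were assigned to 4 classes by UMIs (unique molecular identifiers, each standing for 1 captured RNA molecule) of surface marker genes, none of them among the 10 factors: Siglech and Ccr9 for pDC, Xcr1 and Clec9a for cDC1, Cd209a and Clec10a for cDC2, and Cd34 and Kit for progenitors. A cell needed at least 2 UMIs of its own pair and at most 1 of each other pair. The progenitor gate held 591 cells at 50 µM glutamine, 258 with DON and 228 in control. The pDC gate held 3202, 3357 and 3188 cells in that order, and the cDC2 gate held 638, 440 and 680. The cDC1 gate held 60 cells at 50 µM glutamine, 130 with DON and 561 in control, which were 0.657%, 1.56% and 5.94% of the cells used. The low number of cDC1 cells at 50 µM sets the precision of every cDC1 value there. About as many cells entered no gate as entered one: 4648, 4156 and 4783 cells. Of marker genes not used in the gates, 9 of 9 for cDC1, 7 of 8 for cDC2, 6 of 7 for pDC and 7 of 9 for progenitors were highest in their own class in all 3 libraries. The exceptions were Ltb for cDC2, Irf7 for pDC, and Gata2 and Adgrg1 for progenitors. The libraries held 92002827 UMIs at 50 µM glutamine, 87611658 with DON and 89340379 in control.

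Irf8 (chr8:120736358-120756694, plus strand, GRCm38), an interferon regulatory factor that acts in both pDC and cDC1, was highest in the pDC gate. Its level there was 2212 UMIs per 1000000 UMIs of the class (CPM) at 50 µM glutamine, 2196 CPM with DON and 2335 CPM in control. In the cDC1 gate it was 1583, 1631 and 1701 CPM in the same order. The progenitor gate had 374, 638 and 613 CPM, and the cDC2 gate 344, 346 and 213 CPM. No library of a class overlapped the class ranked next, so the order pDC, cDC1, progenitor, cDC2 held over the 3 libraries.

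Batf3 (chr1:191097847-191108945, plus strand), the partner of IRF8 in cDC1, was highest in the cDC1 gate, at 126 CPM at 50 µM glutamine, 162 CPM with DON and 164 CPM in control. The pDC gate had 1.63, 4.93 and 5.72 CPM and the cDC2 gate 8.36, 12.9 and 12.2 CPM. Progenitors spread widely, at 2.05 CPM at 50 µM, 25.5 CPM with DON and 40.9 CPM in control. The DON and control libraries lay above cDC2 there, whereas the 50 µM library lay below it and within the pDC range.

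Id2 (chr12:25093799-25097140, minus strand), the inhibitor of E proteins, followed the same order. It reached 1082 CPM at 50 µM glutamine, 1163 CPM with DON and 1332 CPM in control in the cDC1 gate. The cDC2 gate had 183, 183 and 205 CPM and the pDC gate 45.3, 56.1 and 65.2 CPM. In the progenitor gate it was 60.7 CPM at 50 µM, 218 CPM with DON and 274 CPM in control, again with the 50 µM library apart from the other pair. Across the 12 sums of class and library, Batf3 and Id2 had a Pearson correlation of 0.975 on the log2(CPM + 5) scale, the highest among the 10 factors. These sums share libraries and depth, so the value is a description.

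Nfil3 (chr13:52967209-52981073, minus strand), a bZIP repressor that acts upstream in cDC1 development, was sparse in every class. Progenitors had 6.76, 7.07 and 5.68 CPM at 50 µM glutamine, with DON and in control, and the cDC2 gate had 5.76, 5.87 and 5.58 CPM. These ranges overlapped. The cDC1 gate, with 2 Nfil3 UMIs at 50 µM and 6 with DON, had 2.92, 3.65 and 5.12 CPM, and the pDC gate had 3.34, 2.16 and 3.44 CPM.

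Zbtb46 (chr2:181387762-181459426, minus strand), a zinc finger factor that marks committed cDC, was highest in the cDC1 gate, with 45.3, 44.4 and 40.7 CPM in the order 50 µM glutamine, DON and control. The cDC2 gate followed with 20.3, 28.9 and 31.3 CPM. The pDC gate had 11.2, 14.3 and 11.8 CPM, and progenitors 2.15, 10.1 and 9.26 CPM. No range overlapped the next. The cDC2 value at 50 µM was the lowest of that class.

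Irf4 (chr13:30749226-30766976, plus strand), which acts in cDC2, was highest in the cDC2 gate at 34.2, 39.2 and 45.9 CPM. The pDC gate had 11.4, 11.1 and 9.99 CPM, progenitors 2.97, 4.24 and 5.68 CPM, and the cDC1 gate 1.46, 2.43 and 2.33 CPM, in the same order of libraries. The cDC1 gate held 1 Irf4 UMI at 50 µM glutamine.

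Klf4 (chr4:55527143-55532466, minus strand), a zinc finger factor needed by a subset of cDC2, did not separate cDC2 from pDC. Its level in the cDC2 gate was 92.7 CPM at 50 µM glutamine, 147 CPM with DON and 124 CPM in control. In the pDC gate it was 106, 133 and 108 CPM, within that range. The cDC1 gate had 39.4, 44.4 and 42.2 CPM and progenitors 12.5, 37.7 and 25.4 CPM.

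Tcf4, on chromosome 18, was highest in the pDC gate, at 1323 CPM at 50 µM glutamine, 1160 CPM with DON and 1394 CPM in control. The cDC2 gate had 121, 135 and 130 CPM and progenitors 161, 129 and 128 CPM, which overlapped. The cDC1 gate was lowest, at 73.0, 51.0 and 62.7 CPM. Of all Tcf4 UMIs of a library, 71.0% at 50 µM, 74.3% with DON and 71.5% in control lay in the pDC gate.

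Spib (chr7:44525993-44532071, minus strand), an ETS factor that acts with TCF4 in pDC, had 165 CPM at 50 µM glutamine, 154 CPM with DON and 157 CPM in control in the pDC gate. The cDC2 gate had 8.55, 12.2 and 12.8 CPM. Progenitors had 4.10, 3.54 and 3.88 CPM and the cDC1 gate 4.38, 2.43 and 1.71 CPM, with 3 Spib UMIs in the cDC1 gate at 50 µM. Tcf4 and Spib had a correlation of 0.970 over the 12 sums.

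Zeb2 (chr2:44983632-45117395, minus strand), a zinc finger repressor that favours pDC and cDC2 over cDC1, was highest in the pDC gate at 387, 345 and 356 CPM. The cDC2 gate had 303 CPM at 50 µM glutamine, 203 CPM with DON and 162 CPM in control, and progenitors 188, 149 and 141 CPM. The cDC1 gate had 108, 24.3 and 7.14 CPM, the widest relative spread of the 10 factors in that class. That spread changed when a few cells with megakaryocyte genes were removed, as described below.

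**Figure D1:**
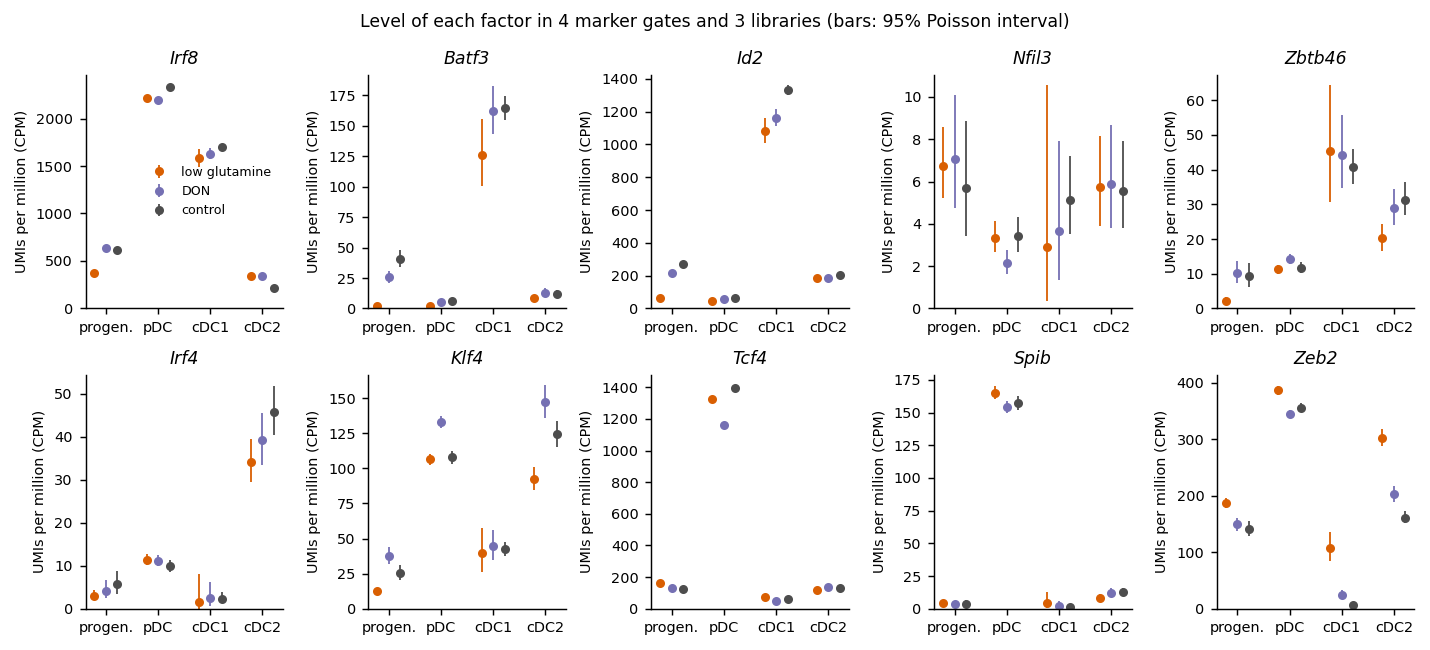
Level of each factor (y axis, CPM, each panel with its own scale from 0) in the progenitor, pDC, cDC1 and cDC2 gates (x axis), with 1 point per library and bars for the 95% Poisson interval. Irf8, Tcf4, Spib and Zeb2 were highest in pDC, Batf3, Id2 and Zbtb46 in cDC1, and the orange points of the 50 µM library stand low for Batf3 and Id2 in progenitors.

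Irf8, Spib and Zeb2 were the factors besides Tcf4 whose level was highest in pDC, the class with most Tcf4, so their upstream sequence is shown with the letters of the E-box, to which E proteins bind. The windows are the 250 bases before the RefSeq start sites at or just upstream of the annotated genes (GRCm38.p6, chr8:120736108-120736357 on the plus strand for Irf8, chr7:44532072-44532321 on the minus strand for Spib and chr2:45117443-45117692 on the minus strand for Zeb2). Capitals mark CANNTG, the E-box, which reads the same on both strands:
Irf8: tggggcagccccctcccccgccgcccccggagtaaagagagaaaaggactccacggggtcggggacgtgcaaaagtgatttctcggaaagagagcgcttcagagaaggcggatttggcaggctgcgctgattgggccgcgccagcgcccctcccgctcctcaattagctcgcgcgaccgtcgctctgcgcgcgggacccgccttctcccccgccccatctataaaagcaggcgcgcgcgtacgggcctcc
Spib: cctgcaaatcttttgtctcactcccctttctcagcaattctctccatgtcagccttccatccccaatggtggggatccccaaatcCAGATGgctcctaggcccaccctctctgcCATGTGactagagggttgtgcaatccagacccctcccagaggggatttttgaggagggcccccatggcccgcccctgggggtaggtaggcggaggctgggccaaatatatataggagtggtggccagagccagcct
Zeb2: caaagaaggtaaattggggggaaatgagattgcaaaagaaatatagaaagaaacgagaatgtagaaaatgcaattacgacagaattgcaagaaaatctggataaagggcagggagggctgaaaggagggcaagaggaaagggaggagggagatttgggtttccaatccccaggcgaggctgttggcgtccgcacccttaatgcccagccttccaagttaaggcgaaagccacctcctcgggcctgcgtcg

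The Spib window held 2 matches, CAGATG and CATGTG, 165 and 136 bases before the start site, and the Irf8 and Zeb2 windows shown held none. Of 32544 upstream windows of the same length in the RefSeq table, 66.2% held at least 1 match, so a match in a single window is common. None of the windows shown held TGANTCA, the letters bound by BATF-JUN pairs (6.73% of all windows). Windows of other RefSeq start sites, inside the annotated genes, held CAGGTG and CACTTG for Irf8 and TGAGTCA and TGACTCA for Zeb2. These are letters in single windows, without any measure of binding.

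Differences between classes were tested on the 12 sums of class and library with edgeR's quasi-likelihood test, with library as a block and Benjamini-Hochberg adjustment over 11103 genes. The spread between libraries includes the culture condition, and nothing in the labels says that the libraries came from separate mice. Between cDC1 and cDC2, 3 of the 10 factors were higher in cDC1 and 5 were lower, against 11.6% of all tested genes higher and 10% lower. Batf3 was higher by 3.80 on the log2 scale (SE 0.50, edgeR adjusted p = 0.00037), Id2 by 2.73 (SE 0.31, edgeR adjusted p = 0.000153) and Irf8 by 2.55 (SE 0.20, edgeR adjusted p = 1.10e-05). Irf4 differed most in the other direction, at -4.09 (SE 0.25, edgeR adjusted p = 2.76e-06). Zeb2 was at -2.83 (SE 0.52), Spib at -2.33 (SE 0.29), Klf4 at -1.46 (SE 0.21) and Tcf4 at -0.98 (SE 0.14), with edgeR adjusted p-values of 0.0030, 0.000274, 0.000592 and 0.00060. The Zeb2 call was lost without the DON library (log2 difference -2.62, edgeR adjusted p = 0.134). Without cells carrying megakaryocyte genes the difference was -4.66 (edgeR adjusted p = 7.38e-08). Zbtb46 (0.70, SE 0.29, edgeR adjusted p = 0.106) and Nfil3 (-0.28, SE 0.30, edgeR adjusted p = 0.61) did not pass. Zbtb46 passed without the 50 µM library, at 0.56 (edgeR adjusted p = 0.0111).

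Between pDC and the mean of both cDC classes, 5 factors were higher in pDC and 4 lower, against 22.1% and 20.7% of all tested genes. Spib was higher by 4.85 (SE 0.14), Tcf4 by 3.66 (SE 0.11), Zeb2 by 2.06 (SE 0.37), Irf8 by 1.48 (SE 0.16) and Klf4 by 0.54 (SE 0.15) on the log2 scale. Their edgeR adjusted p-values were 2.16e-09, 2.21e-09, 0.000958, 1.87e-05 and 0.0159. Klf4 in pDC (106, 133 and 108 CPM) was above cDC1 (39.4, 44.4 and 42.2 CPM) but overlapped cDC2 (92.7, 147 and 124 CPM). Batf3 was at -3.57 (SE 0.45), Id2 at -3.32 (SE 0.30), Zbtb46 at -1.59 (SE 0.23) and Nfil3 at -0.96 (SE 0.22), with edgeR adjusted p-values of 7.81e-05, 6.43e-06, 0.000215 and 0.0040. Irf4 did not pass (0.03, SE 0.17, edgeR adjusted p = 0.955). Its pDC level (11.4, 11.1 and 9.99 CPM) lay below cDC2 (34.2, 39.2 and 45.9 CPM) and above cDC1 (1.46, 2.43 and 2.33 CPM). The mean of both cDC classes thus joined opposite differences. The calls of Klf4 and Nfil3 were lost without the control library (edgeR adjusted p = 0.0816 and 0.0740) and without the DON library (0.0926 and 0.0710). That of Klf4 was also lost with no library block (edgeR adjusted p = 0.180) and in cells with no Mki67 or Top2a UMI (0.110). That of Zeb2 was lost without the DON library (edgeR adjusted p = 0.0681).

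In progenitors, 6 factors were lower and 1 higher than the mean of the other 3 classes, against 27.2% and 27.3% of all tested genes. The lower ones were Zbtb46 at -2.04 (SE 0.28), Spib at -2.04 (SE 0.22), Klf4 at -1.91 (SE 0.18), Irf4 at -1.36 (SE 0.20), Irf8 at -1.04 (SE 0.16) and Tcf4 at -0.72 (SE 0.11). Their edgeR adjusted p-values lay between 9.23e-06 for Klf4 and 0.000317 for Irf8. Nfil3 was higher by 0.57 (SE 0.21, edgeR adjusted p = 0.0372), a call lost without the 50 µM library (edgeR adjusted p = 0.147) and without the DON library (0.219). Batf3 (-0.13, SE 0.41), Id2 (-0.57, SE 0.26) and Zeb2 (0.19, SE 0.35) did not pass, with edgeR adjusted p-values of 0.814, 0.083 and 0.681. Without the 50 µM library, Batf3 was above the mean of the other 3 classes, at 0.46 (edgeR adjusted p = 0.0102). Zeb2 was above it too, at 0.56 (edgeR adjusted p = 0.0160), and at 0.77 without cells carrying megakaryocyte genes (edgeR adjusted p = 0.000381). That mean includes cDC1, where Zeb2 was lowest. In each library Zeb2 in progenitors (188, 149 and 141 CPM) lay below pDC (387, 345 and 356 CPM) and cDC2 (303, 203 and 162 CPM). With 1 gene for each of the 4 gates (Cd34 for progenitors), Batf3 and Id2 were lower in progenitors, at -2.96 (edgeR adjusted p = 1.23e-05) and -2.48 (edgeR adjusted p = 1.94e-08). In cells with no Mki67 or Top2a UMI the calls of Zbtb46, Klf4, Irf4 and Nfil3 were lost, with edgeR adjusted p-values of 0.0931, 0.0805, 0.838 and 0.103.

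**Figure D2:**
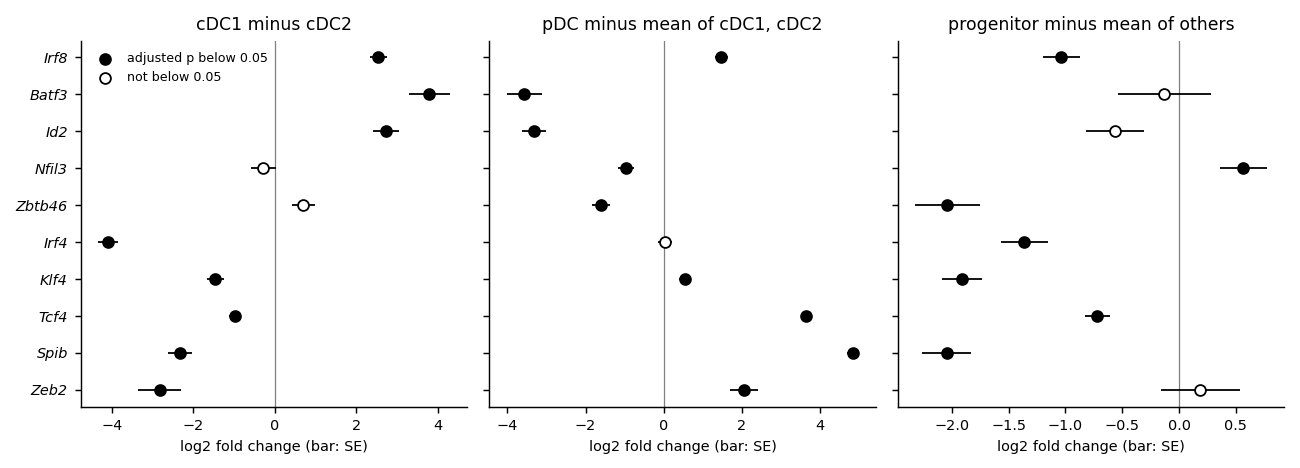
Log2 fold change of each factor (x axis, bars for the SE) in 3 class contrasts, each on its own x scale; filled points passed an adjusted p of 0.05. Batf3 and Id2 lie far to the right in cDC1 against cDC2 and far to the left in pDC against cDC, and Spib and Tcf4 lie at 4.85 and 3.66 in pDC against cDC.

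The culture conditions were compared within each gate as log2 ratios of CPM with 5 CPM added, for factors of at least 20 CPM in the treated or the control library, and a ratio past 1.5-fold was counted. A factor could enter through 1 library alone, and its direction was then fixed by that rule, which also held for all genes. In progenitors at 50 µM glutamine, 4 of the 6 factors of that level were lower than in control past 1.5-fold, where 4.3% of all genes were, and none was higher (3.21% of all genes). Of these, Batf3 and Klf4 reached 20 CPM in control alone. Batf3 had 20 UMIs and 2.05 CPM at 50 µM, against 137 UMIs and 40.9 CPM in control, a log2 ratio of -2.70 (95% interval of the plain ratio of CPM 0.0296 to 0.0803). Id2 had a log2 ratio of -2.08 (interval of the ratio 0.200 to 0.246). Klf4 was at -0.80 (0.370 to 0.657) and Irf8 at -0.71 (0.578 to 0.644). Tcf4 and Zeb2 were above control, at log2 ratios of 0.32 and 0.40, short of 1.5-fold. In progenitors with no Mki67 or Top2a UMI (92 cells at 50 µM, 67 with DON and 67 in control), Zeb2 was past 1.5-fold above control, with 251 CPM at 50 µM and 189 CPM with DON, against 71.6 CPM in control (log2 ratios 1.74 and 1.34). It was also past it at 50 µM with a mean over cells, at 0.69. With DON, the progenitor values were nearer to control: Batf3 alone was past 1.5-fold, at -0.59 (interval of the ratio 0.479 to 0.807), against 0.555% of all genes lower and 0.451% higher. Id2 was at -0.32, Klf4 at 0.49 and Irf8 at 0.06. The Klf4 ratio lay just short of 1.5-fold (interval of the ratio 1.13 to 1.96). It was past it in cells with no Mki67 or Top2a UMI (0.72), with no UMI of the other pairs (0.96) and with a mean over cells (0.71).

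The size of the progenitor differences depended on the gate. With 1 gene per gate, Cd34 for progenitors, Batf3 was 1.10 CPM at 50 µM glutamine, 4.71 CPM with DON and 6.99 CPM in control, and Id2 was 37.6, 67.9 and 68.2 CPM. Irf8 was then 418, 489 and 442 CPM and no longer past 1.5-fold. With at least 3 UMIs of Cd34 and Kit, Irf8 was 321, 526 and 434 CPM and Batf3 1.10, 17 and 17.4 CPM. Id2 was past 1.5-fold at 50 µM in all 12 alternatives, with log2 ratios between -2.16 and -0.78. The Batf3 ratio was past it in all 12 as well, between -3.78 and -0.97, but in 2 of them (1 gene per gate and at least 3 UMIs) its level was under 20 CPM in both libraries, so it counted in 10. Klf4 and Irf8 were past it in 9 of 12 each. The DON value of Batf3 was past it in 4 of 12, and lay between -0.76 and -0.03.

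**Figure D3:**
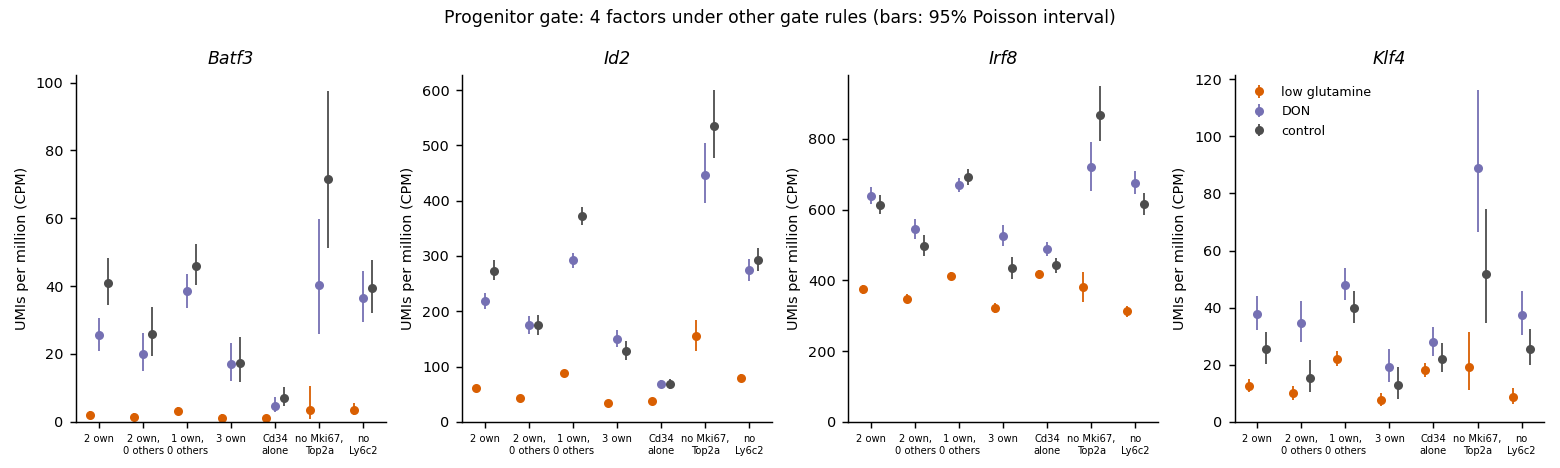
Level of Batf3, Id2, Irf8 and Klf4 (y axis, CPM) in the progenitor gate under 7 gate rules (x axis; own and others count UMIs of Cd34 with Kit and of the other pairs), with 1 point per library and 95% Poisson intervals. The orange points of the 50 µM library are the lowest under each rule for Batf3, Id2 and Irf8, and the gap narrows with 1 gene per gate.

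Marker genes of other classes differed between the progenitor gates too. The 9 cDC1 markers outside the gates summed to 191 CPM at 50 µM glutamine, 341 CPM with DON and 463 CPM in control, with 8, 9 and 9 of them detected. Itgae, an integrin of cDC1, was the one at 0. Naaa, a lysosomal amidase, had 9.12, 44.1 and 88.4 CPM, Rab7b, a small GTPase of endosomes, 11, 57.1 and 69.3 CPM, and Tlr3, a receptor for double-stranded RNA, 1.23, 8.73 and 14.3 CPM. The 7 pDC markers summed to 527, 189 and 129 CPM, with Klk1 at 0 in the 3 libraries, and of this Cox6a2, a mitochondrial respiratory subunit, made up 419, 29.2 and 30.2 CPM. The 9 progenitor markers summed to 2398, 1657 and 1680 CPM. The part of these other markers in the factors' differences was not tested.

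In the pDC gate, no factor was past 1.5-fold in either condition. Across the 6 factors measured there, the log2 ratios lay between -0.48 for Id2 and 0.12 for Zeb2 at 50 µM glutamine, where 7.53% of all genes were higher and 3.22% lower past 1.5-fold. With DON they lay between -0.26 for Tcf4 and 0.29 for Klf4, against 0.94% higher and 0.82% lower. The share of pDC with a UMI of Mki67 or Top2a, genes of dividing cells, was 42.9% at 50 µM, 26.6% with DON and 16.6% in control at 2000 UMIs per cell, and its part in the factors' levels was not tested.

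In the cDC1 gate, 1 of 7 factors was past 1.5-fold in either condition, Zeb2, which was higher at 50 µM glutamine (log2 ratio 3.22) and with DON (1.27). For all genes, 13.8% were higher and 5.24% lower at 50 µM, and 4.53% higher and 1.36% lower with DON. Zeb2 reached 20 CPM in the treated libraries alone. The Zeb2 values rested on a few cells that carried at least 5 UMIs of Pf4 and Itga2b, genes of megakaryocytes, the platelet-forming cells: 4 of 60 cells at 50 µM, 3 of 130 with DON and 2 of 561 in control. These cells held 62 of 74, 33 of 40 and 4 of 46 of the Zeb2 UMIs of the gate, with 0, 0 and 1 Xcr1 UMI. They also held 13.1%, 2.72% and 0.252% of all UMIs of the gate. Without them Zeb2 was 20.2 CPM at 50 µM (12 UMIs, interval 10.4 to 35.2), 4.37 CPM with DON (7 UMIs, 1.76 to 9.01) and 6.54 CPM in control (42 UMIs, 4.71 to 8.84). The log2 ratio was then 1.13 at 50 µM and -0.30 with DON.

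**Figure D4:**
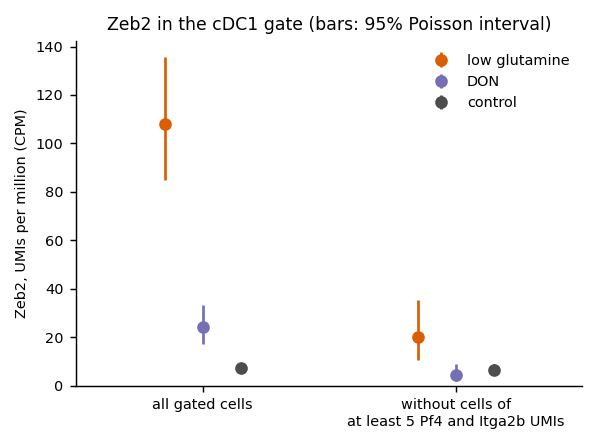
Zeb2 level (y axis, CPM) in the cDC1 gate, for all gated cells and after removal of cells with at least 5 UMIs of Pf4 and Itga2b together (x axis), 1 point per library with 95% Poisson intervals. The value at 50 µM glutamine is 108 CPM with those 4 cells and 20.2 CPM without them.

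The factors that define cDC1 stood nearer to control in the cells that passed the gate. Batf3 had a log2 ratio of -0.38 at 50 µM glutamine (interval of the ratio 0.606 to 0.952) and -0.02 with DON (0.860 to 1.13). Id2 was at -0.30 (0.753 to 0.876) and -0.20 (0.830 to 0.918), and Irf8 at -0.10 (0.874 to 0.991) and -0.06 (0.919 to 1.00), all short of 1.5-fold. These ratios include the cells with megakaryocyte genes, which held 13.1% of the UMIs of the gate at 50 µM, 2.72% with DON and 0.252% in control. Their UMIs count in the total from which each CPM was taken. With a gate of 1 own UMI and none of the other pairs, Batf3 was at -0.96 and Id2 at -0.60 at 50 µM, both past 1.5-fold. With 2 own UMIs and none of the other pairs, Batf3 was past it as well, at -0.73.

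In the cDC2 gate, 2 of 7 factors were higher past 1.5-fold at 50 µM glutamine and 1 of 7 with DON, none was lower. For all genes, 6.72% were higher and 1.92% lower at 50 µM, and 1.48% higher and 0.577% lower with DON. Zeb2 had a log2 ratio of 0.89 at 50 µM (interval of the ratio 1.73 to 2.04) and 0.32 with DON (1.14 to 1.38). Irf8, otherwise lowest in this class, was at 0.68 at 50 µM (1.5 to 1.74) and 0.69 with DON (1.51 to 1.76). The Irf8 ratio at 50 µM was short of 1.5-fold, at 0.53, when scaled by the median of ratios, and Zbtb46 was then lower past it, at -0.64. Irf4, at -0.38 and -0.20, and Klf4, at -0.40 and 0.24, were short of 1.5-fold. The 5 monocyte markers Ly6c2, Ccr2, Fn1, Lyz2 and Chil3 were all detected in this gate and summed to 5348 CPM at 50 µM, 2974 CPM with DON and 1689 CPM in control. Lyz2, the lysozyme of myeloid cells, had 3839, 2022 and 1040 CPM, and Ly6c2, a surface protein of monocytes and pDC, 810, 449 and 249 CPM. In cells of the gate without a Ly6c2 UMI, Irf8 was 380 CPM at 50 µM, 290 CPM with DON and 148 CPM in control. Zeb2 in those cells was 183, 160 and 128 CPM, short of 1.5-fold.

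**Figure D5:**
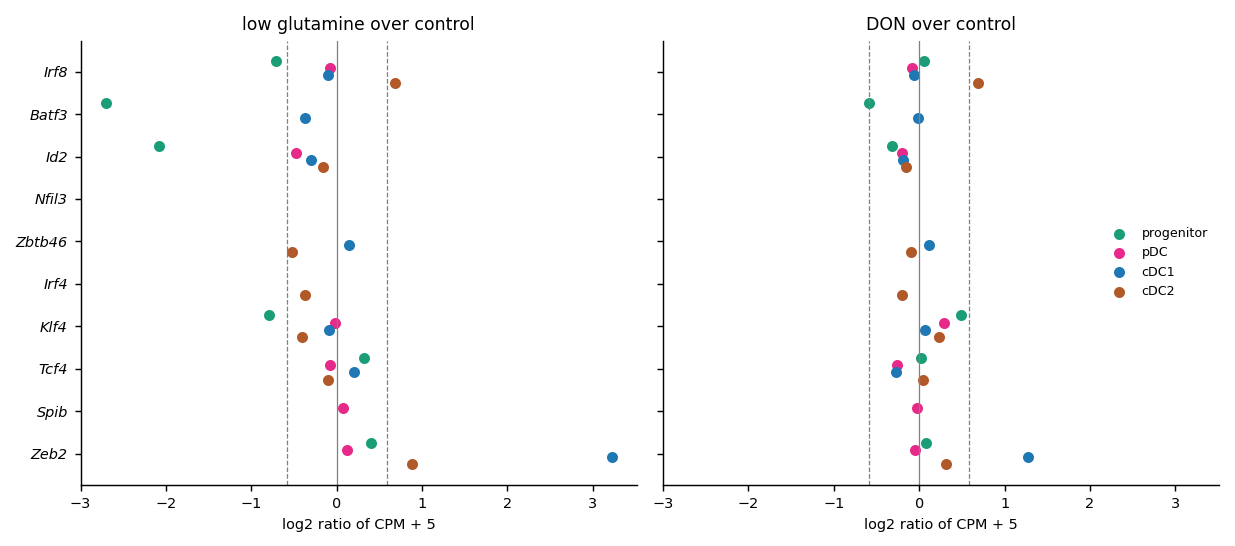
Log2 ratio of each factor (x axis, CPM + 5) at 50 µM glutamine over control and with DON over control in the 4 gates, for factors of at least 20 CPM; dashed lines mark 1.5-fold and each point is 1 library against 1 library. Batf3 and Id2 in progenitors lie at -2.70 and -2.08 at 50 µM, and the Zeb2 point at 3.22 in cDC1 includes the 4 cells with megakaryocyte genes.

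Over all cells of a library, Batf3, Id2 and Zbtb46 were lower than in control past 1.5-fold at 50 µM glutamine, 3 of the 8 factors of at least 20 CPM, where 3.97% of all genes were lower and 6.35% higher. Batf3 had 8.78 CPM at 50 µM, 27.8 CPM with DON and 50.1 CPM in control. Id2 had 138, 224 and 388 CPM and Zbtb46 12.3, 18.9 and 22.8 CPM. In the comparison at 50 µM, Batf3 and Zbtb46 reached 20 CPM in control alone. Zbtb46, at a log2 ratio of -0.68 at 50 µM, was short of 1.5-fold in cells with no Mki67 or Top2a UMI (-0.29) and with a mean over cells (-0.47). With DON, 2 of 8 were lower past 1.5-fold, Batf3 at -0.75 and Id2 at -0.78, where 1.06% of all genes were lower and 0.223% higher. The cDC1 gate held 11.9% of the Batf3 UMIs at 50 µM, 12.4% with DON and 28.4% in control, and cells outside every gate held 73.7%, 73.7% and 62.9%. Values over all cells therefore join the level per cell with the number of cells of each class, which cannot be told apart in them. Irf8, Tcf4, Spib, Klf4 and Zeb2 were short of 1.5-fold over all cells in both conditions.

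The share of cells with a UMI was taken after thinning each cell to 2000 UMIs, so that classes of different depth could be set side by side. As a measure of stray RNA, the shares are set against cells gated on neutrophil genes, which make little of most of these factors. Zeb2 was not low in these cells, at 215 CPM at 50 µM glutamine, 145 CPM with DON and 128 CPM in control. Nfil3 was 38.9, 25.6 and 42.6 CPM, above its level in the 4 gates. Irf8 was uneven between the libraries, at 57.1, 234 and 53.8 CPM. Those cells had median depths of 1918, 2526.5 and 2165 UMIs, against 10378, 12053 and 10158 in the cDC1 gate, and 90, 55 and 73 of them were too shallow to be thinned. Id2 was found in 80.0% of cDC1 at 50 µM glutamine, 84.6% with DON and 91.4% in control (95%, 96.9% and 99.6% before thinning). In progenitors it was found in 10.2%, 32.7% and 31.7% (29.9%, 54.7% and 57.5% before thinning), and in neutrophil-gated cells in 19.7%, 26.6% and 22.5%. The progenitor share at 50 µM was thus below that of the neutrophil-gated cells, and so were the pDC shares of 6.89%, 6.86% and 8.28%. Neutrophils can make Id2 themselves, so these cells do not mark its stray RNA alone. Batf3 was found in 25%, 25.4% and 25% of thinned cDC1 (76.7%, 83.1% and 80.9% before thinning), and these shares lay within each other's counting intervals. In progenitors it was found in 1.02%, 10.5% and 8.81% (2.37%, 21.3% and 29.4% before thinning), and in neutrophil-gated cells in 0 of 76, 1 of 109 and 0 of 102, where a count of 0 allows, by a floor of 3 cells, up to 3.95% at 50 µM and 2.94% in control.

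Irf8 was found in 44.7% of thinned progenitors at 50 µM glutamine, 57.6% with DON and 50.7% in control. Before thinning, these shares were 87.1%, 81.8% and 86.8%, so the 50 µM library was not the lowest there. Of thinned neutrophil-gated cells, 6.58%, 10.1% and 14.7% had an Irf8 UMI. Progenitors with at least 3 Irf8 UMIs among 2000 made up 8.29%, 21.8% and 20.7%. The 50 µM library differed more in cells with many Irf8 UMIs than in cells with any. In pDC those with at least 3 were 72.2%, 73.3% and 78.5%, and in cDC2 5.97%, 7.05% and 3.53%. Tcf4 was found in 84.2%, 83.1% and 87.6% of pDC and in 6.58%, 6.42% and 4.90% of neutrophil-gated cells.

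Pairs of factors were then counted in the same cell, after thinning, beside the share that the product of the single shares gives. Irf8 and Id2 were found together in 5.25% of progenitors at 50 µM glutamine, 24.9% with DON and 25.1% in control, where the products were 4.54%, 18.8% and 16.1%. Batf3 and Id2 were found together in 1.02% (6 cells), 8.95% (23 cells) and 7.05% (16 cells), where the products were 0.103%, 3.43% and 2.79%. All 6 progenitors with a Batf3 UMI at 50 µM also had an Id2 UMI, as did 23 of 27 with DON and 16 of 20 in control. In cDC1 the same pair was found in 18.3%, 21.5% and 23.7%, where the products were 20%, 21.5% and 22.8%. Id2 and Tcf4, which oppose each other, were found together in 4.85% of pDC at 50 µM, 4.83% with DON and 6.27% in control, below the products of 5.80%, 5.70% and 7.26%. Tcf4 and Spib were found together in 27.0%, 25.2% and 26.9% of pDC, above the products of 24.2%, 22.9% and 25.4%. Cells differ in depth before thinning and in class purity, and the part of either in these gaps was not tested.

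The genes whose log2(CPM + 5) followed each factor most closely over the 12 sums were taken from 7037 genes of at least 20 CPM in 1 sum or more, without gate genes. Ifi205, an interferon-inducible gene, had a Pearson correlation of 0.992 with Batf3 and 0.987 with Id2. Rab7b had 0.978 with Batf3 and 0.982 with Id2. Ighm, the immunoglobulin mu chain, had 0.989 with Tcf4. Rab21, a small GTPase, had 0.996 with Spib, and Lifr, a cytokine receptor, had 0.992. Tagln2 had 0.957 with Irf8, Tent5a 0.974 with Irf4, Abi3 0.976 with Klf4, S100a11 0.987 with Zbtb46 and Tpp1, a lysosomal protease, 0.958 with Zeb2. Nfil3, which was sparse, reached 0.901 with Mtln. These are descriptions over 12 sums that share libraries.

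A wider list of 66 other haematopoietic transcription factors was set beside the 10. Between cDC1 and cDC2, 8 of the 58 that could be tested were higher and 16 lower, against 11.6% and 10% of all tested genes. The median log2 difference was -0.14, against 0.03 for all genes. The highest were Gata2 at 5.11, Tal1 at 3.73 and Zfp366, a zinc finger factor of cDC, at 1.72, and the lowest Hoxa9 at -3.81, Bhlhe40 at -2.59 and Cebpb at -2.27. Without the cells with megakaryocyte genes, Tal1 was at -1.56 and not called (edgeR adjusted p = 0.385), Gata2 was too low to be tested, and Zfp366 was at 1.78 (edgeR adjusted p = 0.000191). Between pDC and cDC, 20 were higher and 23 lower, against 22.1% and 20.7% of all tested genes. Ets1 at 7.60, Id3 at 5.61 and Tox at 5.34 were the highest, and Zfp366 at -3.64 and Egr1 at -3.23 were among the lowest. In progenitors, 11 were higher and 32 lower, against 27.3% and 27.2% of all tested genes. Among them were Mycn at 6.55, Tox at 4.35 and Hoxa9 at 4.15 at one end. At the other were Irf7, the interferon factor abundant in pDC, at -2.26, Klf2 at -1.87 and Ciita, the regulator of MHC class II genes, at -1.77. In progenitors at 50 µM glutamine, 8 of 37 measured were lower than in control past 1.5-fold and 2 higher, against 4.3% and 3.21% of all genes. Ciita had 20.1 CPM at 50 µM and 70.2 CPM in control, Klf2 7.68 and 37.6 CPM, and Cebpb, a bZIP factor of myeloid cells, 51.6 and 14.3 CPM. Cebpb was higher past 1.5-fold in cDC2 as well, at 52.8 CPM at 50 µM and 30.3 CPM with DON, against 16.5 CPM in control. With DON, 1 of 39 was higher in progenitors, against 0.451% of all genes, which was Cebpb at 26.2 CPM against 14.3 CPM in control. In cDC2 at 50 µM, Lyl1 had 30.5 CPM against 12.2 CPM in control and Runx2 61.9 CPM against 34.4 CPM in control. With DON, Jun in cDC2 had 40.6 CPM against 67.1 CPM in control. In pDC at 50 µM, Irf7 had 68.6 CPM against 132 CPM in control and Bhlhe40 12.3 CPM against 28.7 CPM in control, whereas Cbfb, the partner of the RUNX factors, had 95.4 CPM against 56.4 CPM in control. In the cDC1 gate with DON, Lyl1 had 23.7 CPM against 9.78 CPM in control and Egr1 8.51 CPM against 20.5 CPM in control. Pf4 there was 692 CPM with DON, and the part of the cells with megakaryocyte genes in these values was not tested. In the cDC1 gate at 50 µM, Tal1, Gata1 and Gata2, factors of megakaryocyte and erythroid cells, had 57.0, 45.3 and 21.9 CPM, against 0.776, 0.776 and 0.621 CPM in control. Pf4 in that gate was 5632 CPM at 50 µM and 14.3 CPM in control, and its part in those 3 values was not tested.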

How the data were processed

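The authors deposited UMI counts for each gene in each called cell, without normalisation. Per the file headers they were made with Cell Ranger 6.0.0, but the version is 3.1.0 (build mm10) per the submitters' processing notes, so the version is unsettled. Barcodes with at least 1000 UMIs, 500 genes and at most 10% mitochondrial UMIs were kept. Scrublet (scanpy 1.11.5, expected rate 0.08) marked 510 doublets at 50 µM glutamine, 546 with DON and 927 in control, which were removed, leaving 9139, 8341 and 9440 cells. Between 20 and 31 barcode sequences were shared by pairs of libraries. Cells with 2 UMIs of B, T, NK, basophil, neutrophil, macrophage or mature dendritic cell genes entered no gate.

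Counts were summed per class and library and given as CPM, with exact Poisson intervals for levels, exact binomial ones for shares and 95% coverage, and a floor of 3 counts beside a share of 0, all for counting error only. Class contrasts used edgeR 4.0.16 with TMM scaling, and SE was derived from the F statistic. DESeq2 1.42.0 was an alternative. The 10 factors, all named, the gates and lists were chosen with earlier results of these data known. The other factors named are, per class and condition, up to 3 with the largest ratio past 1.5-fold, and per contrast the 3 highest and lowest called. One gene that this rule selects is not reported here. Of the gene identifiers 99.8% were found in GENCODE M21, the source of gene positions, and 9 of the factors had RefSeq upstream sequence that was used. The code of the contrast between cDC1 and cDC2 was also run on simulated counts, and no result given here rests on that run.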

Additional observations from a re-analysis of the deposited data

Results flagged for a closer look

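For 4 combinations of factor and condition, the difference from control ran in opposite directions in a pair of classes, beyond counting error in each. The differences between classes were not tested, since each condition had 1 library. Irf8 at 50 µM glutamine was above control in cDC2 (log2 ratio 0.68) and below it in progenitors (-0.71), a gap of 1.38. Irf8 with DON was above control in cDC2 (0.69) and slightly below it in pDC (-0.09), a gap of 0.78. Zeb2 with DON was above control in the cDC1 gate (1.27) and below it in pDC (-0.05), a gap of 1.32, and its cDC1 value was -0.30 without the 3 cells that carried megakaryocyte genes. Tcf4 at 50 µM was above control in progenitors (0.32) and below it in pDC (-0.08), a gap of 0.40.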

How the results depend on the processing

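Each ratio between conditions was recomputed under 12 alternatives, 3 of which (removal of megakaryocyte cells, no UMI of the other pairs, no Ly6c2 UMI) were chosen after seeing the data. The cause of the changes was not tested unless named. The number of factors past 1.5-fold in progenitors at 50 µM glutamine, 4, was 1 with 3 own UMIs, 1 with 1 gene per gate and 2 with no UMI of the other pairs. In the alternatives that gave 1, Batf3 kept a ratio past 1.5-fold and was not counted because both its levels were under 20 CPM. It was 6 (1 higher, 5 lower) in cells with no Mki67 or Top2a UMI and 5 (1 higher, 4 lower) with a mean over cells, where Zeb2 was the higher one. In pDC at 50 µM, 0 became 1 (Id2) with doublets kept and 1 (Id2) with median-of-ratios scaling, which shifts log2 ratios by 0.14 in pDC, 0.15 in cDC2 and 0.14 over all cells at 50 µM, and by 0.11 in cDC1 with DON. Under it Zbtb46 in cDC2 at 50 µM, -0.52, was past 1.5-fold at -0.64. In cDC1 at 50 µM, 1 became 3 with 1 own UMI and 2 with no UMI of the other pairs. In cDC2 at 50 µM, 2 became 1 with 1 own UMI, 1 gene per gate, doublets kept or no Ly6c2 UMI, and 3 (2 higher, 1 lower) with 1 CPM added. With median-of-ratios scaling it was 2 (1 higher, 1 lower), with Irf8 lost at 0.53. Over all cells at 50 µM, 3 became 2 without Zbtb46 in cells with no Mki67 or Top2a UMI and with a mean over cells. In progenitors with DON, 1 became 0 in 6 alternatives (1 own UMI, 3 own UMIs, 1 gene per gate, doublets kept, at least 4000 UMIs, no Ly6c2 UMI) and 3 in cells with no Mki67 or Top2a UMI. With no UMI of the other pairs and with a mean over cells, Klf4 was counted there in place of Batf3. In cDC1 with DON, 1 became 0 without megakaryocyte cells, where the Zeb2 ratio was -0.30 by the removal of the cells that held its UMIs. In cDC2 with DON, 1 became 0 with 1 own UMI, 3 own UMIs, 1 gene per gate, no Mki67 or Top2a UMI, or a mean over cells. Of 400 levels recomputed, 110 moved by more than the spread of the 3 libraries.

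No paired analysis was possible because each condition had 1 library. The class contrasts had library as a block, and with no replicate block 8, 8 and 7 factors were called in cDC1 against cDC2, pDC against cDC and progenitors against the rest, where the main counts were 8, 9 and 7. Leaving out 1 library gave 7 to 9, 6 to 9 and 6 to 8 factors. For all genes it gave 639 to 2761, 2710 to 4996 and 4140 to 5462 calls, where all libraries gave 2399, 4747 and 6046. In cells with no Mki67 or Top2a UMI, all-gene calls were 1546 in cDC1 against cDC2 and 1267 in progenitors against the rest, with 3 factors called in the last. Of 390 recomputed contrasts of single factors, 353 kept direction and side of the threshold and 12 changed sign. Irf4 in progenitors, called with all cells, was at 0.15 in cells with no Mki67 or Top2a UMI. The others were Nfil3 in cDC1 against cDC2 at 0.16 with 1 own UMI, and Irf4 in pDC at -0.040 with no replicate block, -0.10 without the 50 µM library and -0.11 with no UMI of the other pairs. In progenitors, Batf3 was at 0.048 with no replicate block, 0.46 without the 50 µM library, 0.17 with 1 own UMI and 0.91 in cells with no Mki67 or Top2a UMI, where Id2 was at 0.62, and Zeb2 was at -0.076 without the control library and -0.14 with 1 own UMI. Over the fits that left out 1 library, Batf3 there lay between -0.73 and 0.46 and Zeb2 between -0.076 and 0.56. With 60 cDC1 cells at 50 µM, differences in Nfil3, Irf4 and Spib were not detectable there.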

Other observations

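Cells gated on Ccr7 and Fscn1, genes of mature dendritic cells, entered none of the 4 classes and numbered 273 at 50 µM glutamine, 267 with DON and 483 in control. Nfil3, sparse in the 4 classes, reached 31.5 CPM there at 50 µM, 30.6 CPM with DON and 64.0 CPM in control. Batf3 had 77.2, 107 and 182 CPM and Id2 410, 415 and 709 CPM in the same order, so both treated libraries lay below control. Irf8 had 937, 934 and 950 CPM, close together. Zbtb46 had 47.5, 40.7 and 64.0 CPM, above its range in cDC2 in each library. Tcf4 had 241, 223 and 168 CPM and Zeb2 140, 117 and 81.3 CPM, both higher in the treated libraries. These values rest on 1 library per condition and carry no test. The gate mixes mature cells of any origin, and the part of that mix in the differences was not tested.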
